A study of Mus musculus with 12 samples.

Results

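The genes described here are 7 genes named for their regional expression along the small intestine, Gata4, Pdx1, Onecut2, Cyp27a1, Fabp6, Osr2 and Bex1. They were taken from a given list, drawn up with earlier results of these data known, and matched to the table by identifier and symbol, and all 7 were found among its 54232 genes. All 7 were also among the 13368 genes with enough reads to be tested. Positions below are those of GENCODE vM21 on GRCm38, and each of the 7 is annotated there as protein-coding. Expression had been measured by 3′-biased RNA sequencing in intestinal stem cells (ISCs), the dividing cells at the crypt base that renew the gut epithelium. The question asked of the genes was whether the 2 ISC isolations of the study, SM6 and Lgr5-GFP, differed in the region of the small intestine that they sampled.

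SM6 libraries came from wild-type mice (strain C57/Bl6) and Lgr5-GFP libraries from mice labelled Lgr5-EGFP-IRES-CreERT in both strain and genotype, in which a green fluorescent reporter is driven by the Lgr5 gene. Both were made at 2 months (young) and at 22 months (old), with 3 libraries in each of the 4 groups and 1 female mouse per library. The labels name no treatment. For every library the labels describe the same sort by surface markers, for cells with EPCAM, CD166, high CD44 and EPHB2, medium CD24 and low GRP78 and without CD31 and CD45, whereas a legend in the study's supplement names reporter fluorescence as the sort for the Lgr5-GFP mice. Strain and isolation changed together, so their parts in a difference cannot be told apart. In all groups the villi had been scraped off and crypts released from pieces of the small intestine. No label names a region, so the regional pattern of the 7 genes could not itself be checked in these samples.

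The small intestine runs from the duodenum through the jejunum to the ileum, and its epithelium keeps a regional program of transcription factors in the crypt that its differentiated cells read out. GATA4 is the classical factor of duodenal and jejunal identity and is absent from the distal ileum, PDX1 marks the duodenum as well as the pancreas, and ONECUT2 belongs to the HNF6 family of homeodomain factors that is enriched proximally. The ileum takes back bile acids, and FABP6, the ileal bile acid binding protein, carries them through the ileal enterocyte. Fabp6 is a textbook target of the bile acid receptor FXR. CYP27A1 is the mitochondrial sterol 27-hydroxylase of bile acid synthesis, OSR2 an odd-skipped zinc finger factor and BEX1 a small adaptor protein encoded on the X chromosome, and no side is assigned to these last genes here.

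Library totals ran from 970472 to 3815425 counts, and between 14087 and 17680 genes had a count. Lgr5 itself, the receptor that defines ISCs, stood between 217 and 356 CPM (counts scaled to a common library total) over the 12 libraries. Of the 5 colon genes in the table, Car1, Hoxb13 and Hoxd13 were at 0 in every library, as were 5 of 8 stomach and Brunner gland genes and 6 of 8 pancreatic acinar genes, and no pancreatic gene exceeded 1 count in a library. The libraries stood apart in alpha-defensins, which Paneth cells make: 23.2% of the counts of Lgr5-GFP young replicate 1 and 23.1% of those of SM6 old replicate 3 fell on them, against 1.26% to 12.4% elsewhere. The same libraries had the highest summed level of stomach and Brunner gland genes, at 22.1 and 43.1 CPM against 0 to 7.95 CPM elsewhere, mostly from Tff2, a trefoil factor gene.

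Of the 7 genes, Fabp6 was the only one called in a comparison of the isolations, and only at 22 months. It averaged 228 ± 101 CPM (SD, n = 3) in SM6 old and 51.8 ± 44.9 CPM in Lgr5-GFP old, a fitted level 4.26-fold lower. The genes of the proximal side, Gata4, Pdx1 and Onecut2, did not pass the test in any comparison. In the mean over both ages, 0 of the 7 genes were called (edgeR, Benjamini-Hochberg adjusted p between 0.342 and 0.890), while 0.352% of all genes tested were. At 2 months 0 of 7 were called, against 0.0898% of all genes. At 22 months 1 of 7 was called, against 0.718% of all genes. In bulk libraries, fewer cells of a type and less RNA per cell cannot be told apart.

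At an unadjusted p under 0.05, 3 of the 7 genes passed in the mean of both ages, Fabp6, Onecut2 and Osr2, where 7.69% of all genes did. At 2 months it was Bex1 alone against 7.47% of all genes, and at 22 months again Fabp6, Onecut2 and Osr2 against 9.4%. The median log2 fold change of Lgr5-GFP over SM6 was -0.23 for the 7 genes in the mean of both ages, -0.0043 at 2 months and 0.045 at 22 months. Over all genes tested it lay between -0.0081 and 0. Of the 7 genes, 3 lay above 0 and 4 below in the mean of both ages and at 2 months, and 4 above and 3 below at 22 months.

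**Figure D1:**
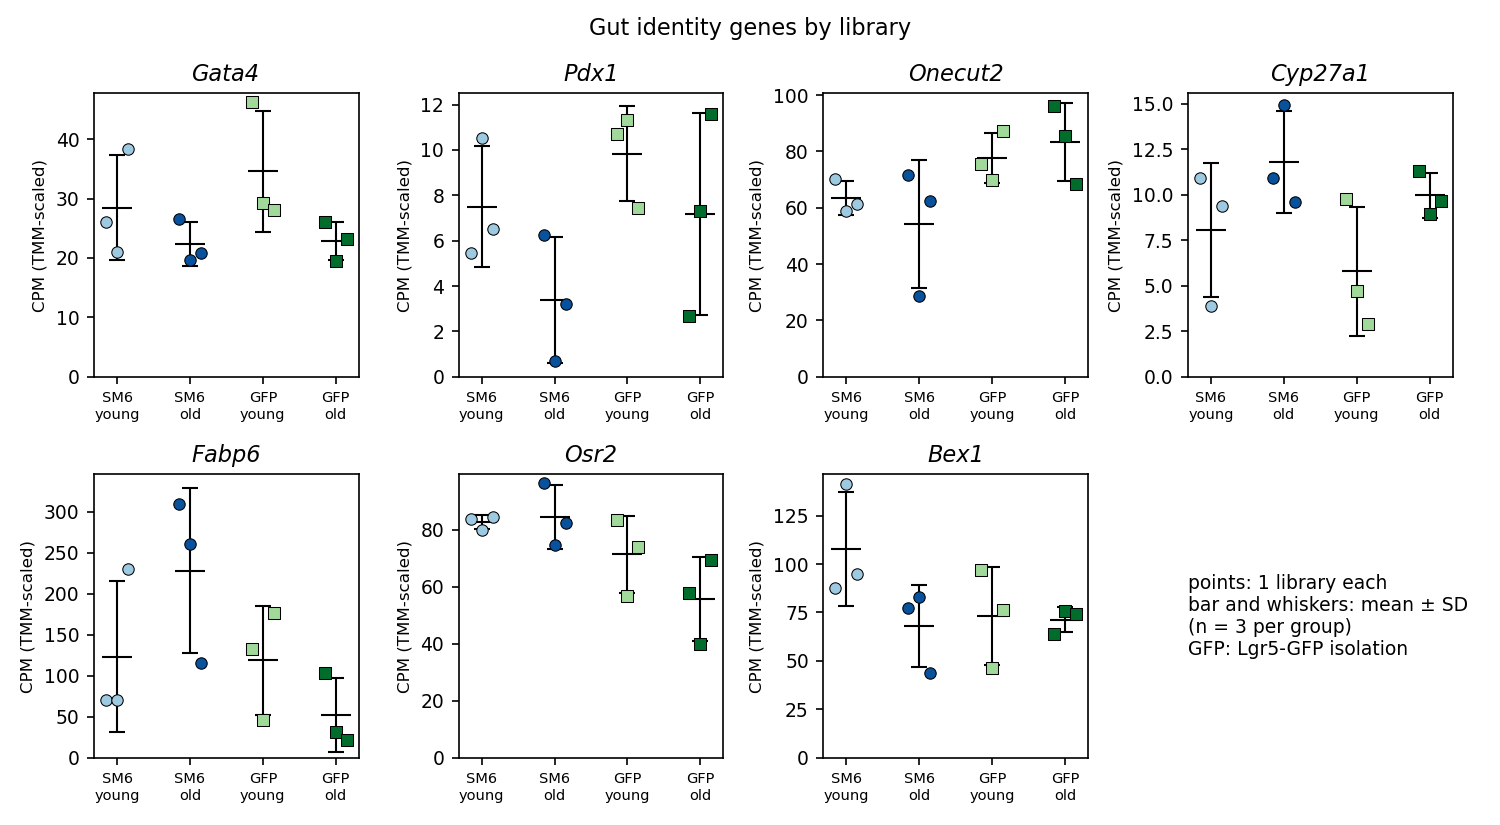
Level of each of the 7 genes in every library, in CPM (counts scaled to a common library total) on the y axis, by isolation and age on the x axis, with bars for the mean ± SD of 3 libraries. For Fabp6 the 3 Lgr5-GFP old libraries, between 21.2 and 103 CPM, lie below the 3 SM6 old libraries, between 115 and 309 CPM, while for Gata4, Pdx1 and Cyp27a1 the isolations overlap at both ages.

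Gata4 (ENSMUSG00000021944, at chr14:63198922-63271692, minus strand) encodes the zinc finger factor that keeps the jejunum from taking on an ileal program. Replicates 1 to 3 of SM6 stood at 26.1, 21.1 and 38.3 CPM when young and at 26.5, 19.7 and 20.8 CPM when old. Those of Lgr5-GFP stood at 46.3, 29.3 and 28.1 CPM when young and at 26.0, 19.5 and 23.1 CPM when old. The group means were in the order Lgr5-GFP young (34.6 ± 10.2), SM6 young (28.5 ± 8.87), Lgr5-GFP old (22.9 ± 3.25) and SM6 old (22.3 ± 3.66). Neighbours in this order overlapped, and the highest library, Lgr5-GFP young replicate 1, was also the deepest and one of the 2 rich in defensin RNA. Between the isolations Gata4 differed by 0.32 on the log2 scale at 2 months (SE 0.27, adjusted p = 0.834) and by 0.045 at 22 months (SE 0.30, adjusted p = 0.989, edgeR). The 95% intervals ran from -0.23 to 0.87 and from -0.58 to 0.67, so that a log2 difference of 1 in either direction lay outside both. Without both defensin-rich libraries the values were 0.041 and 0.014.

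Pdx1 (ENSMUSG00000029644, at chr5:147269959-147275848, plus strand) is the homeodomain factor of the duodenum and pancreas, and is also made by enteroendocrine cells of the proximal gut. It was the sparsest of the 7 genes, with 1 to 34 counts per library. SM6 libraries held 5.46, 10.5 and 6.50 CPM when young and 6.23, 0.679 and 3.20 CPM when old, the last but one with a single count. Lgr5-GFP libraries held 10.7, 11.3 and 7.45 CPM when young and 2.67, 7.32 and 11.6 CPM when old. The means followed the order Lgr5-GFP young (9.84 ± 2.09), SM6 young (7.50 ± 2.68), Lgr5-GFP old (7.19 ± 4.46) and SM6 old (3.37 ± 2.78), with overlap between all neighbours. The difference between the isolations was 0.36 at 2 months (95% interval -0.71 to 1.43) and 1.05 at 22 months (-0.29 to 2.39) on the log2 scale, with adjusted p = 0.920 and 0.664 by edgeR. Under the alternatives tried the 2 values ran from 0.17 to 0.70 and from 0.54 to 1.86, the last without SM6 old replicate 1 and the last but one without SM6 old replicate 2. A log2 difference of 1 toward Lgr5-GFP lay within both intervals, and one of that size toward SM6 outside both.

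Onecut2 (ENSMUSG00000045991, at chr18:64340020-64400987, plus strand), a homeodomain factor that is also used by enteroendocrine cells, held 58.8 to 70.4 CPM in SM6 young and 70.0 to 87.3 in Lgr5-GFP young. In old mice it held 71.7, 28.5 and 62.3 CPM in SM6 replicates 1 to 3 and 96.0, 85.4 and 68.5 in Lgr5-GFP. SM6 old replicate 2 was thus far below the other 11 libraries. The order of the means was Lgr5-GFP old (83.3 ± 13.9), Lgr5-GFP young (77.6 ± 8.87), SM6 young (63.5 ± 6.09) and SM6 old (54.2 ± 22.7), and neighbours overlapped, Lgr5-GFP young and SM6 young by a margin of less than 1 CPM. Onecut2 was the gene of the proximal side with the highest test statistic, at 0.47 on the log2 scale in the mean of both ages (SE 0.17, 95% interval 0.12 to 0.82). Its unadjusted p was 0.0107 and its adjusted p 0.426 (edgeR), so it was not called. Values were 0.30 at 2 months (adjusted p = 0.811) and 0.64 at 22 months (adjusted p = 0.376, edgeR). Without SM6 old replicate 2 the value at 22 months was 0.32 (adjusted p = 0.726) and that of both ages 0.31 (adjusted p = 0.616).

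Osr2 (ENSMUSG00000022330, at chr15:35296098-35303305, plus strand) held 83.7, 79.8 and 84.6 CPM in SM6 young and 96.6, 74.7 and 82.3 in SM6 old. In Lgr5-GFP it held 83.5, 56.7 and 74.1 CPM in young and 58.0, 39.8 and 69.4 in old mice. It was the steadiest of the 7 genes in SM6 young, and the 3 Lgr5-GFP old libraries lay below all 6 SM6 libraries. The means fell in the order SM6 old (84.5 ± 11.2), SM6 young (82.7 ± 2.53), Lgr5-GFP young (71.4 ± 13.6) and Lgr5-GFP old (55.8 ± 14.9), and neighbours overlapped. The log2 difference between the isolations was -0.19 at 2 months (SE 0.20, adjusted p = 0.881) and -0.60 at 22 months (SE 0.21, unadjusted p = 0.00819, adjusted p = 0.297, edgeR), and neither was called. Onecut2 and Osr2 had thus opposite signs, and the count of Onecut2 over that of Osr2 within a library ran from 0.382 to 0.841 in the 6 SM6 libraries and from 0.906 to 2.14 in the 6 Lgr5-GFP libraries, without overlap. This ratio was chosen after the values were seen and is given as a description with no test.

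Cyp27a1 (ENSMUSG00000026170, at chr1:74713574-74737892, plus strand) was also sparse, with 5 to 31 counts per library. It held 10.9, 3.88 and 9.39 CPM in young and 10.9, 14.9 and 9.59 CPM in old SM6 libraries. In young Lgr5-GFP libraries it held 9.77, 4.73 and 2.90 CPM and in old ones 11.3, 8.94 and 9.64 CPM. The means were in the order SM6 old (11.8 ± 2.78), Lgr5-GFP old (9.97 ± 1.23), SM6 young (8.07 ± 3.70) and Lgr5-GFP young (5.80 ± 3.56), and every group overlapped with every other. Lgr5-GFP differed from SM6 by -0.38 at 2 months (95% interval -1.37 to 0.61, adjusted p = 0.905) and by -0.24 at 22 months (-1.21 to 0.73, adjusted p = 0.931, edgeR) on the log2 scale. Without both defensin-rich libraries these values were -1.12 (adjusted p = 0.658) and -0.36 (adjusted p = 0.867). Lgr5-GFP young replicate 1 held the most Cyp27a1 of its group and SM6 old replicate 3 the least of its own.

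Bex1 (ENSMUSG00000050071, at chrX:136213972-136215513, minus strand) held 87.4, 141 and 94.7 CPM in SM6 young and 77.2, 82.8 and 43.9 in SM6 old. In Lgr5-GFP it held 96.7, 46.3 and 76.2 CPM in young and 64.0, 75.6 and 74.3 in old mice. The means were in the order SM6 young (108 ± 29.3), Lgr5-GFP young (73.1 ± 25.3), Lgr5-GFP old (71.3 ± 6.36) and SM6 old (68.0 ± 21.0). The 3 SM6 young libraries lay above all 3 SM6 old libraries, and neighbours in the order overlapped. Between the isolations the log2 difference was -0.53 at 2 months (SE 0.24, unadjusted p = 0.0396, adjusted p = 0.651) and 0.060 at 22 months (SE 0.26, adjusted p = 0.974, edgeR). Without both defensin-rich libraries, of which SM6 old replicate 3 held the least Bex1 of all, the values were -0.76 (adjusted p = 0.362) and -0.16 (adjusted p = 0.891), and without SM6 old replicate 3 alone the sign at 22 months turned as well (-0.16).

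**Figure D2:**
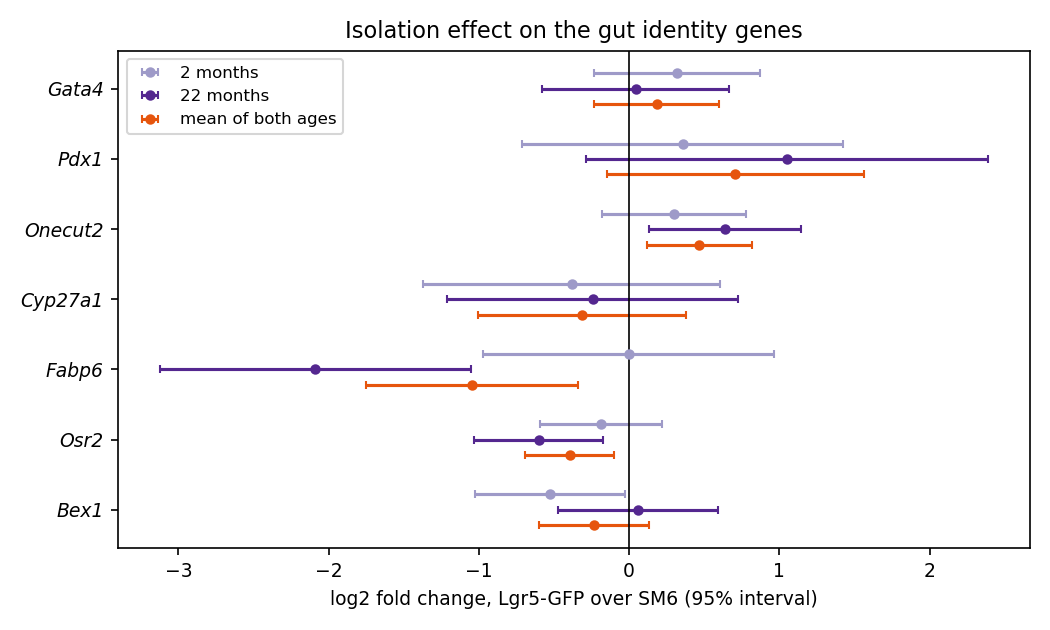
Log2 fold change of Lgr5-GFP over SM6 (x axis) for each of the 7 genes (y axis) at 2 months, at 22 months and as the mean of both ages, with 95% intervals from the edgeR fit. Fabp6 at 22 months, at -2.09, is the one value that passed the adjusted threshold, and Onecut2 and Osr2 lie on opposite sides of 0.

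Fabp6 (ENSMUSG00000020405, at chr11:43596049-43601540, minus strand) is the gene of the ileal side, and the sequence before its start is shown because Fabp6 was the gene called and because its promoter carries the letters of a bile acid receptor element. The 250 bases are from RefSeq (GRCm38.p6, chr11:43601563-43601812, minus strand, 5′ to 3′), and the capitals mark an inverted repeat of the hexamer AGGTNA with 1 base between the copies, 142 to 130 bases before the start.
Fabp6: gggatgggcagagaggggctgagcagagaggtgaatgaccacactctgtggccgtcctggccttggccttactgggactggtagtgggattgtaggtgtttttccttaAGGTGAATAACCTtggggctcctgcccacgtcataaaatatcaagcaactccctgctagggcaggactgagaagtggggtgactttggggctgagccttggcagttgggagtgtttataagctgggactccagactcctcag
This arrangement, known as IR-1, is the one that FXR binds together with the retinoid receptor RXR. The letters searched, with any base at the N and no other mismatch, were found on either strand in 6 of 32851 promoter windows of this length (0.0183%). This share is that of the pattern searched and not of all FXR elements. Promoter entries were matched for 4 of the 7 genes (Cyp27a1, Pdx1, Fabp6 and Bex1), and none of the 4 windows held the letters AGATAA of a GATA site (9.99% of all windows) or TTTATNG of a CDX site (9.81%), searched on both strands. A match describes the letters and not the binding of a factor.

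Fabp6 had the widest spread of the better-counted genes, with 22 to 427 counts per library. In SM6 young, replicates 1 and 2 stood at 70.4 and 69.8 CPM and replicate 3 at 229.8. The old SM6 libraries stood at 309, 259.9 and 115 CPM. Young Lgr5-GFP libraries stood at 133, 46.3 and 177 CPM, and the old ones at 103, 30.9 and 21.2 CPM. The isolations overlapped at 2 months but not at 22 months, where the highest Lgr5-GFP library was just under the lowest SM6 library. The order of the means was SM6 old (228 ± 101), SM6 young (123 ± 92.2), Lgr5-GFP young (119 ± 66.3) and Lgr5-GFP old (51.8 ± 44.9), and each overlapped with its neighbours.

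At 22 months the fitted log2 fold change of Fabp6 in Lgr5-GFP over SM6 was -2.09 (SE 0.50, 95% interval -3.12 to -1.05, unadjusted p = 0.000357, adjusted p = 0.0498, edgeR). At 2 months the value was -0.0043 (95% interval -0.97 to 0.96, adjusted p = 0.999). The difference between these 2 effects was -2.09 (SE 0.68, 95% interval -3.49 to -0.68), with an unadjusted p of 0.0055 and an adjusted p of 0.264, so the isolation effect was not shown to differ between the ages. The call at 22 months was close to the threshold and depended on single libraries. Without Lgr5-GFP old replicate 1, the highest of its group, the value was -3.12 (adjusted p = 0.0104). Without Lgr5-GFP old replicate 2 or 3 the adjusted p was 0.246 and 0.219, and without SM6 old replicate 1 or 2 it was 0.199 and 0.149, with the value between -1.98 and -1.74. Without both libraries rich in defensin RNA it was -2.39 (adjusted p = 0.0105). The call was also lost under DESeq2 (adjusted p = 0.228), under voom with sample weights (0.059), under the robust fit (0.475) and under a stricter filter (0.0712), at values from -2.13 to -2.09.

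Within single libraries the count of Fabp6 over that of Gata4, which needs no scaling of the totals, gave a similar picture of wide spread. Among SM6 libraries it was 2.70, 3.32 and 6.0 at 2 months and 11.7, 13.2 and 5.54 at 22 months. In Lgr5-GFP it was 2.86, 1.58 and 6.28 in young and 3.97, 1.58 and 0.917 in old libraries. At 2 months the 2 isolations overlapped, and at 22 months the SM6 libraries were above all Lgr5-GFP libraries. Gata4 held 19.5 to 26.5 CPM in these 6 old libraries, so the separation at 22 months lay in the Fabp6 counts. This ratio, too, is a description with no test.

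Age was compared within each isolation and over both. None of the 7 genes was called in the mean of both isolations (2.66% of all genes were called), in SM6 (2.42%) or in Lgr5-GFP (0.471%), nor was a difference of the age effects between the isolations called (0.658%). Adjusted p-values ran from 0.288 to 0.927, from 0.211 to 0.976, from 0.422 to 0.963 and from 0.264 to 0.982, respectively (edgeR). These comparisons share the old and young libraries with the isolation comparisons above. Fabp6 was at 0.90 in old over young SM6 ISCs (adjusted p = 0.430) and at -1.18 in Lgr5-GFP (adjusted p = 0.422), both on the log2 scale. Gata4 was at -0.34 in SM6 and -0.61 in Lgr5-GFP, and Pdx1 at -1.18 and -0.49. Bex1 was at -0.66 in SM6 (adjusted p = 0.211) and -0.078 in Lgr5-GFP (adjusted p = 0.963). Cyp27a1 was at 0.57 and 0.71, Osr2 at 0.030 and -0.38 and Onecut2 at -0.24 and 0.10. In all, 6 of the 7 genes were below 0 in the mean of both isolations, where the median over all genes was -0.026.

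Other genes with known regional expression were taken from lists. Of 14 proximal genes, 13 were tested, and 4 fell in Lgr5-GFP relative to SM6 in the mean of both ages while 0 rose. They were Gip (-5.97 on the log2 scale, adjusted p = 1.28e-08), Sct (-2.24, 1.46e-06), Cck (-2.26, 0.00759) and Apoa1 (-1.12, 0.0206), edgeR throughout. Gip, Sct and Cck encode hormones of enteroendocrine cells of the upper gut, and Apoa1 an apolipoprotein of absorptive cells. The median of the 13 genes was -0.46, beside -0.0073 over all genes tested. At 2 months 1 of 13 fell, Gip, from 612 ± 324 CPM in SM6 to 16.7 ± 20.0 CPM in Lgr5-GFP (log2 fold change -5.02, adjusted p = 0.000134), and the median was 0.29. Sct was called at 2 months as well when both defensin-rich libraries were left out (-1.78, adjusted p = 0.00327). At 22 months 6 fell, with Lct (-3.00, adjusted p = 0.00125), the brush border lactase, and Apoa4 (-1.70, adjusted p = 0.0156) in addition, and the median was -1.18. Gkn3, a gastrokine gene that ISCs themselves express, held 795 to 1918 CPM per library and stood at 0.01 at 2 months (adjusted p = 0.995) and 0.67 at 22 months (adjusted p = 0.133). Without both defensin-rich libraries the latter was 0.84 and was called (adjusted p = 0.0168).

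Of the 12 distal genes, all were tested. In the mean of both ages 2 fell in Lgr5-GFP and 0 rose, Pyy (adjusted p = 1.46e-06) and Nts (adjusted p = 0.00165), which encode hormones of enteroendocrine cells of the lower gut. At 2 months 0 of 12 were called, and the median was -0.11. Pyy was at -2.39 there (adjusted p = 0.0546) and was called without both defensin-rich libraries (-3.38, adjusted p = 0.0173). At 22 months 5 fell. Pyy had 65 to 136 counts per library in SM6 old and 0 to 3 in Lgr5-GFP old (adjusted p = 9.09e-06), and Nts had 10 to 75 and 0 to 2 (adjusted p = 0.00374), so that a fitted fold change of either depends on the prior count. Gcg, the proglucagon gene, was at -2.09 (adjusted p = 0.0385), Clec2h at -2.04 (adjusted p = 0.0358) and Slc51a, a basolateral bile acid transporter of the ileum, at -1.74 (adjusted p = 0.019, edgeR). The median of the 12 genes at 22 months was -1.89. Without both defensin-rich libraries 4 distal genes fell in the mean of both ages, 1 at 2 months and 5 at 22 months. With single libraries left out in turn, calls at 22 months were lost for 2 of the 6 proximal genes, Apoa4 and Cck, and for 3 of the 5 distal genes, Slc51a, Clec2h and Gcg, and in the mean of both ages for Apoa1. The genes called on the proximal and the distal list thus lay on the same side at 22 months, as did 90 of the 96 genes called over the whole table, and 37 of 47 in the mean of both ages were also lower in Lgr5-GFP.

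**Figure D3:**
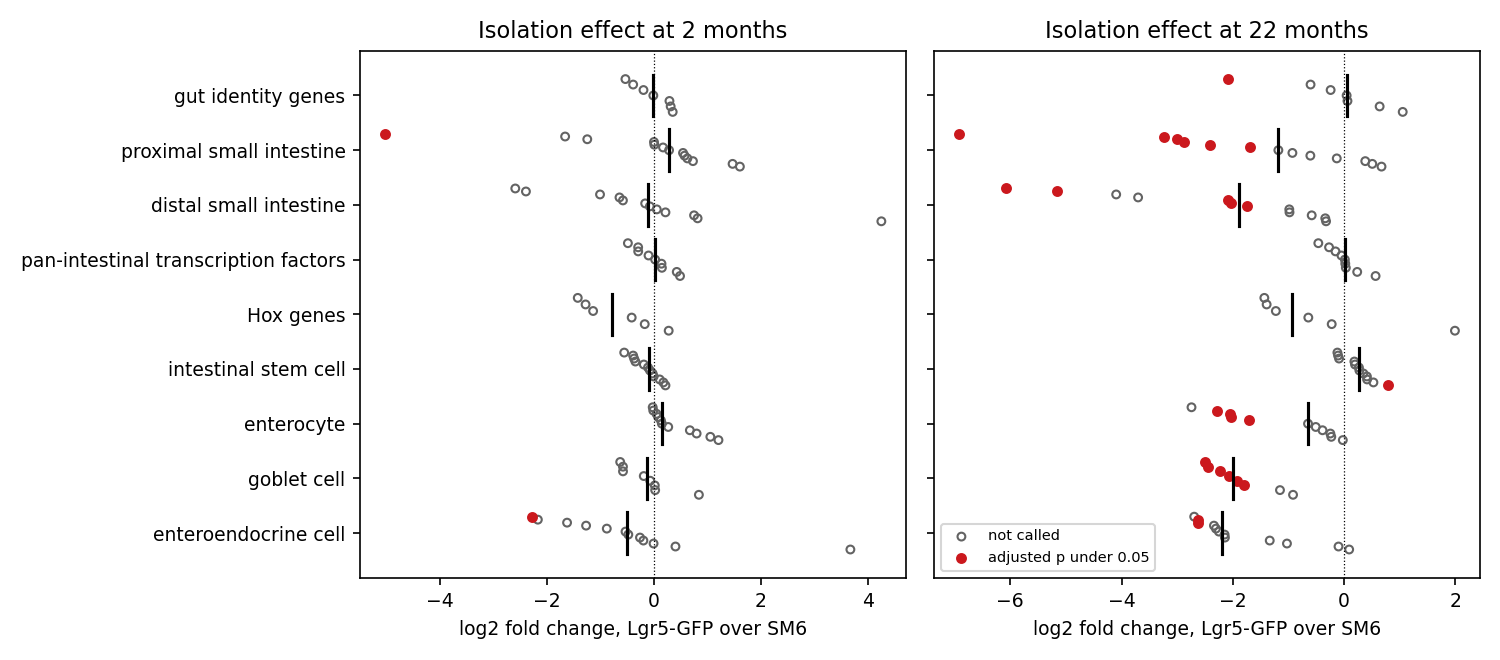
Log2 fold change of Lgr5-GFP over SM6 (x axis) for single genes of each list (rows), at 2 months on the left and at 22 months on the right, with vertical bars for list medians and filled points for genes called at an adjusted p under 0.05. At 22 months the proximal list (median -1.18) and the distal list (median -1.89) have medians to the left of 0, as do enterocyte, goblet and enteroendocrine genes, while transcription factors of the whole intestine have a median of 0.013. Points of genes with counts near 0 in a group, such as Pyy and Nts, depend on the prior count.

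The ileal genes most closely tied to bile acid uptake were sparse. Slc10a2, the apical transporter that brings bile acids into the ileal enterocyte, had 0 to 14 counts per library and Fgf15, the hormone that the ileum secretes in response, 0 to 6. Nr1h4, which encodes FXR, held 9.73 ± 5.6 CPM in young and 18.5 ± 3.64 in old SM6 libraries, and 16.3 ± 5.10 in young and 23.1 ± 11.8 in old Lgr5-GFP libraries. Of the 9 tested genes of bile acid and retinoid handling, 0 were called in any of the 7 comparisons, and their median isolation effect was -0.034 at 2 months and -0.018 at 22 months. Without both defensin-rich libraries these medians were -0.25 and -0.34, again with 0 called.

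Transcription factors that are expressed along the whole intestine gave a further point of comparison. Of 9 genes (Cdx1, Cdx2, Hnf4a, Hnf4g, Gata5, Gata6, Isx, Klf5 and Elf3) 0 were called in any comparison, and the median isolation effect was 0.030 at 2 months and 0.013 at 22 months. Cdx2, the master factor of intestinal fate, held 96.2 ± 11.1 and 64.0 ± 2.24 CPM in SM6 young and old, and 78.3 ± 6.49 and 61.9 ± 20.7 in Lgr5-GFP. Gata6, the relative of Gata4 that is expressed in both the jejunum and the ileum, was at -0.48 at 2 months (adjusted p = 0.643) and 0.56 at 22 months (adjusted p = 0.405). Of 23 Hox genes, which pattern the body axis, 6 had enough reads to be tested and 0 were called. Their median isolation effect was -0.77 at 2 months and -0.94 at 22 months, with 5 of the 6 below 0 at each age. The summed Hox level ran from 23.7 to 42.6 CPM in young and from 38.2 to 48.2 CPM in old SM6 libraries, and from 5.67 to 33.7 CPM in young and from 25.3 to 36.6 CPM in old Lgr5-GFP libraries. In this sum the isolations overlapped at 2 months but not at 22 months.

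Several regional genes are hormones or absorptive genes of differentiated cells, so markers of those cells are given beside them. Of 12 enteroendocrine markers, which did not include these hormones, 3 fell in Lgr5-GFP in the mean of both ages: Chga (-2.45, adjusted p = 9.67e-07), Chgb (-1.94, adjusted p = 0.000841) and Tac1 (-1.88, adjusted p = 0.0421). Tac1 was not called without the defensin-rich libraries (-1.90, adjusted p = 0.0848). At 2 months 1 marker was called, Chga (-2.27, adjusted p = 0.00121, edgeR), and at 22 months 2, Chga (-2.63) and Chgb (-2.63). With single libraries left out in turn, 0 of the calls at either age and 1 of the 3 in the mean were lost. The summed level of the 12 markers ran from 287 to 394 CPM in young and from 218 to 592 CPM in old SM6 libraries, and from 102 to 169.8 CPM in young and from 43.4 to 139 CPM in old Lgr5-GFP libraries, without overlap between the isolations at either age. Of 8 goblet markers, 5 fell in the mean of both ages, among them Agr2 (-1.05), Tff3 (-1.19), Muc2 (-1.24) and Zg16 (-1.54), and 6 at 22 months. At 2 months 0 of 8 were called (median -0.12). Their summed level at 2 months was 5712 to 9134 CPM in SM6 and 5304 to 13753 CPM in Lgr5-GFP, with overlap, and at 22 months 17322 to 18248 CPM in SM6 and 3159 to 5504 CPM in Lgr5-GFP, without. With age 5 of the 8 rose in SM6 and 0 were called in Lgr5-GFP. With single libraries left out in turn, 2 of the 5 goblet calls in the mean of both ages, 2 of the 6 at 22 months and 4 of the 5 with age in SM6 were lost at least once. No defining enteroendocrine, goblet or enterocyte marker of these lists was at 0 in every library. The part of these cells in the results for the regional genes was not tested.

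Enterocyte markers are given beside Fabp6. Of 11 markers, 0 were called at 2 months (median 0.16), and 4 fell in Lgr5-GFP at 22 months, Krt20 (-2.29, adjusted p = 0.000126), Sis (-1.71, 0.0131), Alpi (-2.05, 0.0207) and Enpep (-2.04, 0.0302), with a list median of -0.65. With age, 5 of the 11 rose in SM6, among them Enpep (2.09, adjusted p = 0.00891), Alpi (1.89, adjusted p = 0.0119) and Sis (1.60, adjusted p = 0.00778), and 0 were called in Lgr5-GFP. Krt20 fell with age in Lgr5-GFP when both defensin-rich libraries were left out (-1.34, adjusted p = 0.0387). With single libraries left out in turn, 3 of the 4 calls at 22 months and all 5 of the calls with age in SM6 were lost at least once. The age effect differed between the isolations for 4 of them, including Krt20 (-2.28, adjusted p = 0.00772) and Alpi (-3.26, adjusted p = 0.00989). The summed enterocyte level ran from 1654 to 1769 CPM in young and from 1777 to 3305 CPM in old SM6 libraries, and from 1671 to 2006 CPM in young and from 1656 to 2339 CPM in old Lgr5-GFP libraries. The 2 SM6 old libraries with the most enterocyte RNA were also those with the most Fabp6, whereas the SM6 young library with 229.8 CPM of Fabp6 had no more enterocyte RNA than its group. Lgr5-GFP old replicate 2 had the third-highest enterocyte level (2339 CPM) with Fabp6 at 30.9 CPM. At 22 months the isolations overlapped in summed enterocyte RNA but not in Fabp6. The part of enterocytes in the Fabp6 result was not tested.

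**Figure D4:**
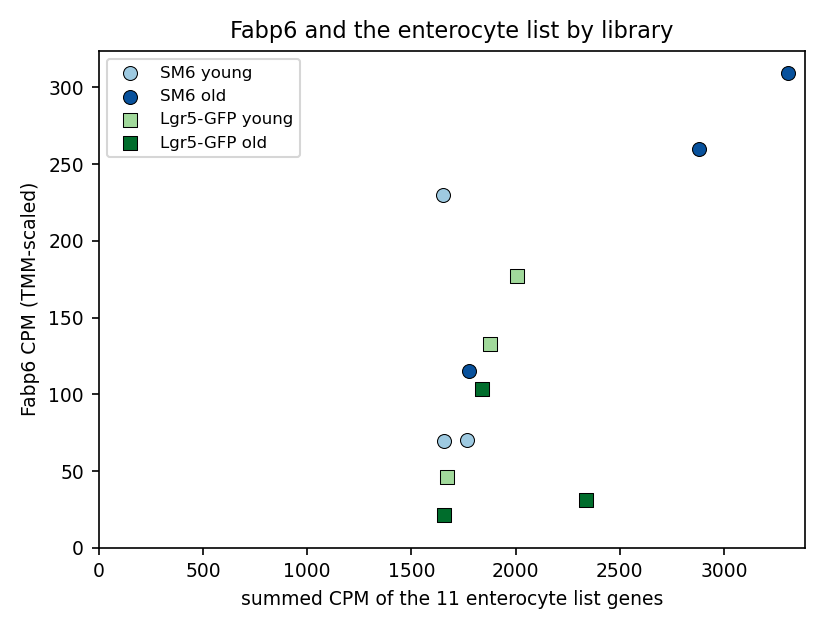
Fabp6 level (y axis) against the summed level of the 11 enterocyte list genes (x axis), both in CPM, with 1 point per library and color and shape by group. SM6 old replicates 1 and 2 stand apart at the upper right, and the remaining libraries lie between 1654 and 2339 CPM of enterocyte RNA with Fabp6 from 21.2 to 229.8 CPM.

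Stem cell genes bear on the sort itself. Of 12 ISC markers, 0 were called at 2 months and 1 at 22 months, Slc12a2, a chloride cotransporter that was higher in Lgr5-GFP (0.78, adjusted p = 0.013). It was not called without Lgr5-GFP old replicate 3 (0.68, adjusted p = 0.120) or without SM6 old replicate 2 (0.75, adjusted p = 0.0573). The summed level of the 12 at 2 months was 14081 to 17445 CPM in SM6 and 13580 to 15280 CPM in Lgr5-GFP, with overlap. At 22 months the sum was 8724 to 10096 CPM in SM6 and 11482 to 12923 CPM in Lgr5-GFP, without overlap, and 9 of the 12 lay above 0. With age, Olfm4 (-0.84), Sox9 (-1.01), Cdk6 (-1.05) and Znrf3 (-1.01) fell in SM6 and 0 were called in Lgr5-GFP. The same 4 fell in the mean of both isolations, of which Znrf3 lost its call in both comparisons at least once with single libraries left out, and for 0 of the 12 did the age effect differ between the isolations by its test. Of 9 Paneth markers, Ang4 fell in Lgr5-GFP at 22 months (-3.20, adjusted p = 0.0403) and the age effect differed between the isolations for 8. Without the defensin-rich libraries Ang4 was at -1.31 (adjusted p = 0.0769, edgeR), and the age effect differed for 2 markers, Mmp7 and Ang4. Within the isolations, Mmp7 (-2.61) and Defa17 (-2.80) fell with age in Lgr5-GFP and Defa22 (3.12) rose in SM6. Each of these calls was lost at least once with single libraries left out in turn. Without both defensin-rich libraries 4 of 9 fell with age in Lgr5-GFP (Mmp7, Itln1, Defa17 and Defa30). Defa22 was then not called in SM6 (1.29). In tuft, immune and enteric neuron and glia lists, of which 5, 3 and 1 genes were tested, 0 were called in any comparison. Lgr5-GFP young replicate 1 and SM6 old replicate 3 had the highest summed tuft level (47.9 and 20.8 CPM, against 0.779 to 11.4 elsewhere). They also had the highest summed immune level (28.4 and 22.4 CPM, against 0.964 to 10.4 elsewhere).

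Age effects on the regional lists follow. In the mean of both isolations Fabp1, the fatty acid binding protein of proximal enterocytes, rose by 2.62 on the log2 scale (adjusted p = 0.00173) and Creb3l3 by 1.38 (adjusted p = 0.0338). In SM6, Sct (1.28), Fabp1 (2.66), Slc51a (1.96) and Pyy (1.63) rose. Without the defensin-rich libraries Lct (1.74), Apoa1 (1.51) and Lypd8 (0.58) passed as well, and Gkn3 fell (-0.67). In Lgr5-GFP, Apoa4 (-1.64), Lct (-2.24) and Apoa1 (-1.47) fell. The age effect of Lct (-3.63), Apoa1 (-2.60), Apoa4 (-2.44), Sct (-2.0) and Slc51a (-2.57) was lower in Lgr5-GFP than in SM6 by the test of the difference itself, of which Sct was not called without the defensin-rich libraries (-1.17, adjusted p = 0.295). Among these differences, those of Sct and Slc51a were also lost without single libraries, Slc51a without any of 4 and Sct without any of 6. Fabp1 was uneven among old mice, at 1027 to 5563 CPM in SM6 and 780.2 to 9851 in Lgr5-GFP, and so was Creb3l3, at 16.0 to 75.6 and 17.4 to 120 CPM. Lgr5-GFP old replicate 2 stood apart in the summed proximal level, at 11409 CPM against 3510 and 2535 in its group, and without it Creb3l3 was at 0.76 in the mean age effect (adjusted p = 0.209). With single libraries left out in turn, the calls of Sct, Fabp1 and Pyy with age in SM6 and those of Apoa4, Lct and Apoa1 in Lgr5-GFP were lost at least once.

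The genes whose levels followed each of the 7 most closely were sought among 9497 genes by the Pearson correlation of log2 CPM over the 12 libraries. The points share groups, depth and scaling, so the values are descriptions. Up to 3 are given for each. For Fabp6 they were 1300002E11Rik (r = 0.920) and the amino acid transporter gene Slc43a2 (0.899). For Gata4 they were Zfp426 (0.852), Znfx1 (0.844) and Coq10b (0.835), and for Pdx1 Ankib1 (0.941), Lmo7 (0.901) and Bbx (0.884). For Onecut2 they were Polr3g (0.877) and Wwox (0.836), for Osr2 Cenpj (0.907), Gm42664 (0.904) and Chkb (0.886), for Cyp27a1 Mlycd (0.874), Synj1 (0.870) and Aptx (0.834), and for Bex1 Gfod2 (0.892), Phf21b (0.881) and Gm6368 (0.859). None of the 7 genes was among the 3 nearest genes of another.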

How the data were processed

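Counts were deposited by the authors as 1 table of whole-number reads per gene for the 12 libraries, with no scaling. Per the labels and methods, reads had been aligned to GRCm38 with STAR 2.4.2a and counted over GENCODE exons with featureCounts. Library construction added molecular identifiers, and their collapse is not given in the sources used here, so a count's own interval would cover counting error only. Positions were read from GENCODE vM21 on the same build.

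The study's filter was used, which keeps a gene where any 1 library holds over 5 reads and a CPM of 1 or more (13368 genes). Totals were scaled by TMM (factors 0.803 to 1.10). All 12 libraries entered a single edgeR 4.0.16 quasi-likelihood fit (R 4.3.3) in which each group had its own mean. Tests were two-sided, adjusted by Benjamini-Hochberg over all genes tested, and called at an adjusted p under 0.05. Replicates were separate mice. The 7 genes and the gene lists were chosen with earlier results of these data known. Named genes were the 7, up to 4 called genes per list and comparison by smallest adjusted p, and the 3 genes most like each of the 7. A few of these and of the list genes are not reported here, and list counts, medians and sums leave them out. A few further list genes were named after their values were seen (Gkn3, Slc10a2, Fgf15, Nr1h4, Cdx2, Gata6, Lgr5, Apoa4, Gcg, Lypd8 and genes at 0). Alternatives were another scaling, filter, test (DESeq2 1.42.0, limma 3.58.1 voom), sample set or block, and leaving out each library. For the lists, leaving out both defensin-rich libraries or each library in turn was chosen after seeing the data.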

Additional observations from a re-analysis of the deposited data

Results flagged for a closer look

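Groups of 3 libraries are too small for a test of outlying values, so none was made. The age effect differed between the isolations, by the interaction test of edgeR at an adjusted p under 0.05, for genes of the lists but for none of the 7 genes. Given as the log2 age effect in Lgr5-GFP minus that in SM6, the differences were -3.63 for Lct, -2.60 for Apoa1, -2.44 for Apoa4, -2.0 for Sct and -2.57 for Slc51a among the regional genes. Among enterocyte markers they were -2.28 for Krt20, -3.26 for Alpi, -2.51 for Sis and -3.10 for Enpep. Among goblet markers they were -2.91 for Spink4, -1.74 for Agr2 and -2.52 for Muc2, and among Paneth markers -5.71 for Ang4, -4.20 for Mmp7, -5.44 for Itln1 and -5.13 for Lyz1. These genes were the up to 4 per list with the smallest adjusted p, and every difference was below 0, as were 81 of the 88 differences called over all genes. The size of the Paneth differences depended on the 2 defensin-rich libraries, Lgr5-GFP young replicate 1 and SM6 old replicate 3. Without both, the differences were -2.24 for Ang4 (adjusted p = 0.0301), -1.90 for Mmp7 (0.0324), -2.0 for Itln1 (0.110) and -1.79 for Lyz1 (0.118), and that of Sct was -1.17 (0.295).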

How the results depend on the processing

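Of the members' values under alternatives, 1012 kept direction and side of the threshold, 8 lost the call, 7 gained one and 30 changed sign. At 22 months the 1 call, Fabp6, went to 0 calls under a stricter filter (filterByExpr), DESeq2, voom with sample quality weights and the robust fit, and ranged from 0 to 1 when single libraries were left out. Without a filter, members called were 1 (Fabp6) in the mean isolation effect, 2 (Fabp6 and Bex1) for age in SM6, 1 for age in Lgr5-GFP and 1 for the interaction, and the interaction had 0 to 1 calls with single libraries left out, Fabp6 without Lgr5-GFP old replicate 1 or SM6 young replicate 3. Without a filter 23621 genes were tested and Fabp6 at 22 months had an adjusted p of 1.02e-21 at an unchanged fold change. The cause was not tested, and no conclusion is drawn from the calls of the unfiltered fit. Calls over all genes also moved by over 1.5 times without a filter, from 47 to 131 in the mean isolation effect, 12 to 125 at 2 months, 96 to 228 at 22 months, 355 to 590, 323 to 603 and 63 to 274 for age in the mean, SM6 and Lgr5-GFP and 88 to 224 for the interaction. At 2 months they were 20 to 25 without the defensin-rich libraries, by DESeq2, by voom or with totals alone, voom gave 28 in the mean isolation effect, totals alone 97 for age in Lgr5-GFP and the robust fit 50 for the interaction. With single libraries left out they ranged from 26 to 61, 6 to 39, 40 to 120, 228 to 471, 145 to 404, 26 to 113 and 41 to 98, in the order above.

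Values near 0 changed sign. Fabp6 at 2 months was 0.021 without a filter, 0.0051 by voom and 0.016 with only the groups compared, and -0.38 to 0.80 with single libraries left out. Bex1 at 22 months was -0.042 by voom and -0.16 without both defensin-rich libraries. Fabp6 in the mean age effect was 0.19 by voom and 0.062 without those libraries. With totals alone, Osr2 for age in SM6 was -0.12, Bex1 for age in Lgr5-GFP 0.14 (0.18 without the defensin-rich libraries) and the Gata4 interaction 0.11. With single libraries left out, Gata4 at 22 months ranged from -0.068 to 0.19, Bex1 at 22 months from -0.16 to 0.23, and in the mean age effect Onecut2 from -0.19 to 0.089 and Fabp6 from -0.65 to 0.26. For age in SM6, Onecut2 ranged from -0.48 to 0.078 and Osr2 from -0.058 to 0.11, and for age in Lgr5-GFP, Onecut2 from -0.018 to 0.22 and Bex1 from -0.29 to 0.18. In the interaction, Gata4 ranged from -0.54 to 0.022 and Cyp27a1 from -0.22 to 0.90.

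Replicate numbers were not treated as pairs in the main fit. Deviations of same-numbered libraries correlated at -0.074 to 0.048 over 18 pairs, and those of other-numbered libraries at -0.11 to 0.14 over 36. Such correlations cannot exclude that same-numbered libraries shared a preparation. With the replicate block Fabp6 at 22 months was -2.24 (adjusted p = 0.0197), and the block changed no call among the 7 genes. Over all genes it moved the number of calls by less than 1.5 times, for example from 88 to 104 for the interaction. Pdx1 and Cyp27a1 had the fewest counts of the 7 genes.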
